A study of Mus musculus with 15 samples.

Results

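Transcript levels of 48 cytokine, chemokine and NF-kB genes were examined in primary mouse kidney proximal tubule cells, out of 24421 gene symbols counted. The genes were chosen by name, with earlier results of these data known. The list holds secreted ligands, NF-kB transcription factors, inhibitors of NF-kB, signalling proteins, Toll-like receptors and effector genes. All 48 are in the count table, 42 had enough counts to be tested, and Cxcl15 had no count in any library. The donors were C57BL/6 mice, and the cells were grown and passaged in a dish before RNA was taken. There were 4 groups, male WT (Diet1+/+, n = 4 libraries), male KO (Diet1-/-, n = 3), female WT (Diet1+/+, n = 4) and female KO (Diet1-/-, n = 4). The labels name no drug or other treatment, and the ages of the mice are not given in the sources used here. Diet1 encodes a protein of intestine and kidney with a known role in bile acid balance, and its transcript was not analysed here. The labels describe 1 pool of cells a group, from 3 to 4 mice, divided into 4 technical replicates. All p-values between groups hence rest on the technical spread within pools, and cover neither mice nor separate cultures.

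NF-kB is a family of transcription factors, the products of Rela, Relb, Rel, Nfkb1 and Nfkb2, that wait in the cytoplasm bound to inhibitors. Signals from Toll-like receptors, from the receptors of interleukin 1 and from those of tumour necrosis factor destroy the inhibitors, and the freed dimers enter the nucleus and switch on chemokine, cytokine and adhesion genes. They also switch on their own inhibitors, such as Nfkbia and Tnfaip3, which close the response. Injured kidney tubule epithelium is known to make such chemokines and to attract leukocytes with them.

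Library totals were 17648416 to 30896637 counts, at which 3 counts correspond to 0.0971 to 0.170 CPM (the counts relative to the library total, with TMM scaling). By correlation no library stood apart from its group: log2 CPM values correlated at 0.994 or more within groups and at no more than 0.993 between them. In counts, male WT library 1 differed most from its group, with values given under the processing. Markers of the labelled cell type gave a mixed picture. Megalin (Lrp2) was at 20.96 ± 1.54 CPM in male WT and 19.5 ± 1.43 in female WT (SD, n = 4 each), and the kidney transcription factor Pax8 at 116 ± 5.25 and 129 ± 2.50 CPM. Lrp2 was lower in KO, at 15.4 ± 1.14 CPM in males and 12.1 ± 0.857 in females. Not all markers moved with it. Cubn, at 6.57 CPM in male WT and 5.95 in female WT, was not called in either sex. Cdh6 was higher in female KO (log2 fold change 0.55, edgeR adjusted p = 6.01e-06). Pax8 was at 126 ± 4.31 CPM in male KO and 116 ± 3.12 in female KO. Transporters of the mature proximal tubule were close to absent, with 4 counts of Slc34a1 and 1 count of Slc22a6 over all 15 libraries. As group means, Hnf4a was at 0.794 to 1.11 CPM, Anpep at 1.24 to 1.56 and Aqp1 at 1.19 to 1.45. Col1a1, listed as a fibroblast marker, was at 964 to 1947 CPM. These values do not settle how much of each pool was proximal tubule.

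More of these genes were higher than lower in KO cells of either sex. In male cells 21 of the 42 tested genes were called changed at an adjusted p below 0.05 (edgeR's quasi-likelihood test, adjusted by Benjamini-Hochberg over the 13912 genes tested), beside 20.2% of all genes. Of these 16 were higher in KO and 5 lower, against 10.1% and 10.1% of all genes. In female cells 33 members were called, beside 39.3% of all genes, with 27 higher and 6 lower, against 20.7% and 18.6% of all genes. These are 38.1% and 11.9% of the members in male cells and 64.3% and 14.3% in female cells. The list was made with earlier results of these data known, so these shares describe it and are no independent test. The median log2 fold change of the tested members was 0.10 in male and 0.28 in female cells, beside 0.00021 and 0.00014 for all genes. All 16 genes higher in male KO were also called higher in female KO. Of the 5 lower in male KO, Cxcl14, Il6 and C3 were lower in female KO as well, Cxcl12 was higher there, and Il11 was not called. With library size as the only scaling the female counts were 25 higher and 7 lower, while the share of higher genes among all called fell from 52.7% to 39.9%. Without male KO library 3, 10 members rather than 16 were called higher in male KO, and without female KO library 2, 3 rather than 6 were called lower in female KO. The summed level of 16 macrophage and leukocyte marker genes also differed between groups, at 31.4 to 36.3 CPM for male WT, 46.5 to 47.3 for male KO, 48.5 to 57.0 for female WT and 63.2 to 77.5 for female KO, and its part in these counts was not tested. Of the 13 tested markers 6 were higher in male KO and 7 in female KO, and the lymphocyte markers Cd3e and Ms4a1 had 6 and 2 counts over all libraries.

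**Figure D1:**
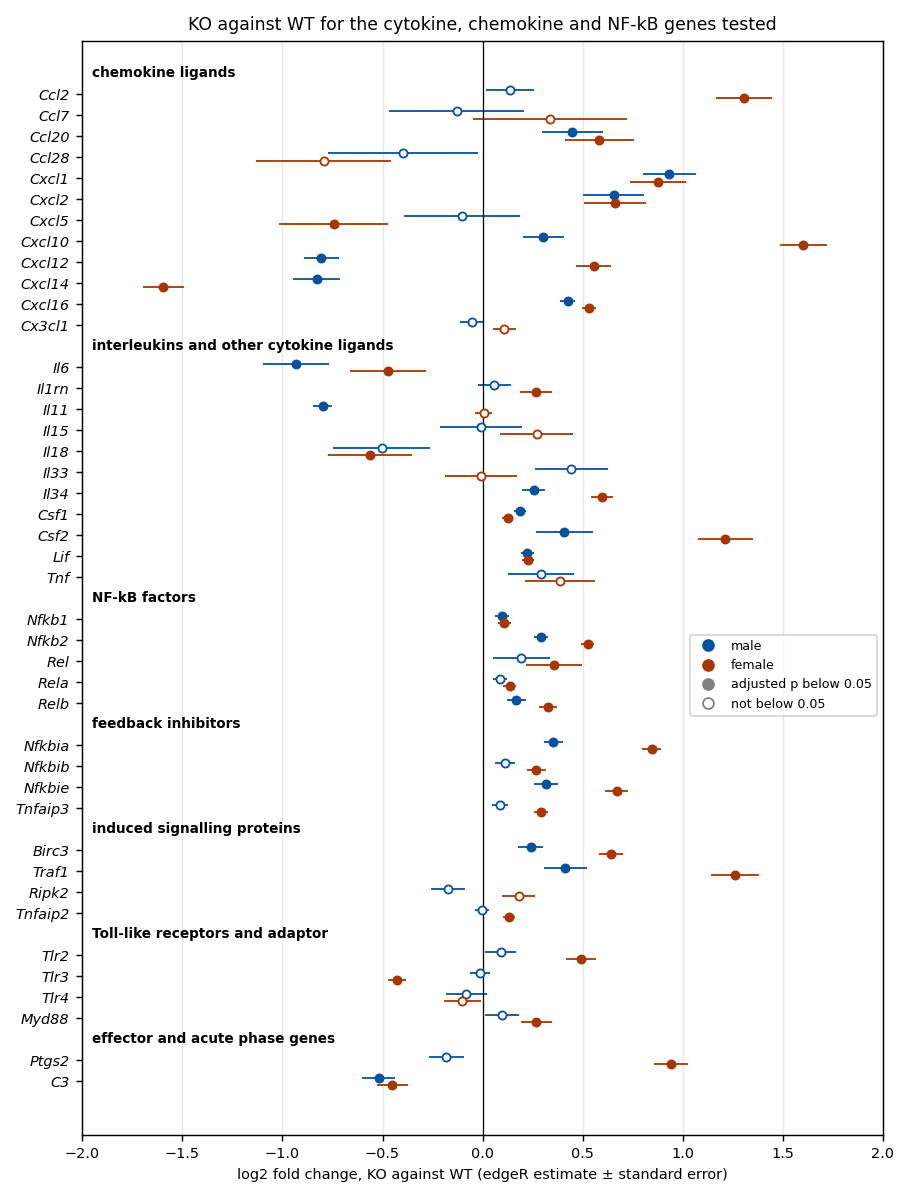
Log2 fold change of KO against WT (x axis, edgeR estimate with its standard error) for the 42 tested genes, in blocks by role, in male cells (blue) and female cells (brown), with filled points where the adjusted p was below 0.05. Most filled points lie right of 0, and Cxcl12 lies left of 0 in male and right of 0 in female cells.

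At least 1.5-fold changes were fewer. In male KO 2 members rose and 4 fell by that much, beside 0.633% and 2.58% of all genes, and in female KO 11 rose and 2 fell, beside 3.45% and 3.28%. The 16 genes that met this rule in either sex, each with at least 1 CPM in some group, are given below with their value in every library. Values after ± are SDs over libraries for CPM and standard errors for log2 fold changes. Positions are on GRCm38.

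Levels per length set the genes apart by more than 2 orders of magnitude. Per kilobase of exon, the highest group means in male WT were those of the cytokine Il11 (95.7 CPM per kb), the macrophage growth factor Csf1 (80.4), the prostaglandin synthase Ptgs2 (61.7), the NF-kB subunit Rela (43.5) and the cytokine Lif (41.0). Chemokines other than Cxcl16 (31.1) were at or below the 8.04 CPM per kb of Cx3cl1, and the lowest of the tested genes was Ccl28, at 0.124. Exon lengths are from GENCODE M21 and may differ from those the authors counted.

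**Figure D2:**
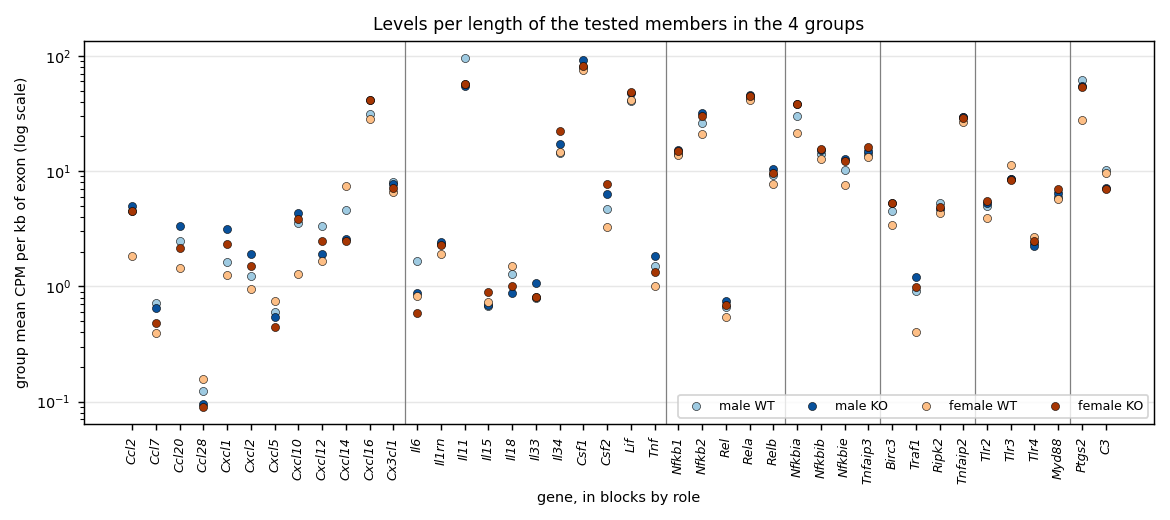
Group mean level per kilobase of exon (y axis, log scale, CPM per kb) of the 42 tested genes (x axis, in blocks by role) in the 4 groups. Il11, Csf1, Ptgs2, Lif and Rela lie highest, and the female WT point is the lowest of the 4 for most genes.

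Of 12 tested chemokine genes, male KO had 5 higher and 2 lower, beside 10.1% and 10.1% of all genes. Female KO had 7 higher and 2 lower, beside 20.7% and 18.6% of all genes, so the 2 lower were near the share of all genes. The neutrophil attractants Cxcl1 and Cxcl2 rose in KO cells of both sexes. Both signal through the receptor Cxcr2, and their genes are classical NF-kB targets. Their promoters are shown because they carry the same match to the kappaB consensus, the sequence that NF-kB dimers bind, here in capitals. The windows run from 250 bases before to 50 bases after the start site (RefSeq, GRCm38.p6, chr5:90890995-90891294, plus strand, and chr5:90903649-90903948, plus strand).
Cxcl1 promoter: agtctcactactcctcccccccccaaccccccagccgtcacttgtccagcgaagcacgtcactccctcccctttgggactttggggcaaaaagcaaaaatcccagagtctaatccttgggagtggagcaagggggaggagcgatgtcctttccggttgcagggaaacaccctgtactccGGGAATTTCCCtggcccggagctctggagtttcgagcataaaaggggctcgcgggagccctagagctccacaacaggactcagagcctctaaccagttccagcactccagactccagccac
Cxcl2 promoter: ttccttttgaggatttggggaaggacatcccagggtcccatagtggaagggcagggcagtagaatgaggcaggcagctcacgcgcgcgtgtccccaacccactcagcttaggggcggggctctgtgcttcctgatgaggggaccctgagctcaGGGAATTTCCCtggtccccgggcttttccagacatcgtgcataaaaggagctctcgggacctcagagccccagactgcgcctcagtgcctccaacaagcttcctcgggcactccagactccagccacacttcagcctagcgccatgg

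Cxcl1 (chromosome 5, 90891241 to 90893115) was at 3.14, 2.61, 3.43 and 3.04 CPM in the male WT libraries, 5.43, 6.499 and 5.78 in male KO, 2.13, 2.23, 2.34 and 2.74 in female WT and 3.65, 4.89, 4.06 and 4.82 in female KO. All KO libraries were above all WT libraries of the same sex. The log2 fold change was 0.93 ± 0.13, edgeR adjusted p = 1.59e-06 in males, a 1.91-fold difference, and 0.88 ± 0.14, edgeR adjusted p = 3.64e-06 in females, 1.84-fold. Cxcl2 (chromosome 5, 90903871 to 90905938) was at 1.97, 2.44, 2.95 and 2.72 CPM in the male WT libraries, 3.90, 3.85 and 4.02 in male KO, 1.57, 2.02, 2.002 and 2.26 in female WT and 3.08, 3.25, 2.86 and 3.33 in female KO. Its groups did not overlap in either sex, and the log2 fold changes were 0.65 ± 0.15, edgeR adjusted p = 0.00155 in males and 0.66 ± 0.16, edgeR adjusted p = 8.46e-04 in females. The female and male effects differed by -0.056 ± 0.19 for Cxcl1 and 0.0057 ± 0.21 for Cxcl2 (edgeR adjusted p = 0.897 and 0.991), so no difference between the sexes was called at this precision.

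Cxcl16, a membrane-bound chemokine that also scavenges oxidised lipid, was the most abundant chemokine and rose in both sexes. It was at 93.8 ± 5.76 CPM in male WT, 126 ± 1.46 in male KO, 86.2 ± 2.33 in female WT and 125 ± 3.61 in female KO, with log2 fold changes of 0.42 ± 0.038, edgeR adjusted p = 1.95e-10 in males and 0.53 ± 0.036, edgeR adjusted p = 5.02e-14 in females. Part of its exons (18.3%) overlaps Zmynd15 on the opposite strand, and the strand setting of the counting is not given in the sources used here. Opposite-strand exons also overlap 5.9% of Cxcl10, 11.6% of Nfkb2, 14.5% of Nfkbib, 11.3% of Myd88, 7.3% of Tlr3 and 6.3% of Tnfaip2. A further opposite-strand gene overlaps Nfkb2 (Psd, 6.5%) and Nfkbib (Sirt2, 1.9%). For Csf2, 96 exon bases lie opposite the antisense gene Gm12223. Ccl20, which attracts cells that carry Ccr6, was at 3.51 ± 0.864 CPM in male WT, 4.75 ± 0.304 in male KO, 2.06 ± 0.281 in female WT and 3.08 ± 0.496 in female KO, with log2 fold changes of 0.45 ± 0.15, edgeR adjusted p = 0.0343 and 0.58 ± 0.17, edgeR adjusted p = 0.00684. Its female WT and KO libraries overlapped. The male call was lost without any 1 of 5 of the 7 male libraries (all but male WT 2 and 3) and with DESeq2.

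Cxcl10 and Ccl2 showed another pattern, in which the female WT libraries were the low ones. Cxcl10 attracts T cells through Cxcr3 and responds to interferon as well as to NF-kB. Its promoter (chr5:92348840-92349139, minus strand) is shown for its pair of separate kappaB matches, in capitals.
Cxcl10 promoter: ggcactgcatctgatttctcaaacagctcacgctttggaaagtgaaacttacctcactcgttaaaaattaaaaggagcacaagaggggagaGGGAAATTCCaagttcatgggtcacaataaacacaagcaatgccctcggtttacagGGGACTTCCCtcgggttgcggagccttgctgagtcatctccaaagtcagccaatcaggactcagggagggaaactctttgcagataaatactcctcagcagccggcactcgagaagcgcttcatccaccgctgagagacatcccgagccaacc

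Cxcl10 (chromosome 5, 92346638 to 92348889) was at 8.25, 7.89, 8.44 and 7.15 CPM in the male WT libraries, 9.88, 9.41 and 10.2 in male KO, 2.69, 3.94, 2.44 and 2.42 in female WT and 7.76, 8.64, 9.10 and 8.87 in female KO. The female WT values were all below those of the other 11 libraries. It rose 3.04-fold in female KO (log2 fold change 1.60 ± 0.12, edgeR adjusted p = 4.19e-13) and 1.23-fold in male KO (0.30 ± 0.10, edgeR adjusted p = 0.0331), and the difference between the sexes was 1.30 ± 0.16, edgeR adjusted p = 1.83e-07. The male call was lost without male WT library 2 or 4 or male KO library 1 or 3. Ccl2, the main attractant of monocytes (chromosome 11, 82035571 to 82037453), was at 5.24, 4.11, 5.73 and 5.55 CPM in the male WT libraries, 5.48, 5.93 and 5.74 in male KO, 2.23, 1.97, 2.34 and 1.75 in female WT and 5.14, 4.74, 5.77 and 4.73 in female KO. All female WT libraries again lay below the rest, and the male groups overlapped. The female log2 fold change was 1.31 ± 0.14, edgeR adjusted p = 1.60e-09, the male one 0.14 ± 0.12, edgeR adjusted p = 0.488, and the difference between them 1.17 ± 0.18, edgeR adjusted p = 1.36e-05.

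Cxcl12 moved in opposite directions in the 2 sexes. Its product holds cells that carry Cxcr4 in place and is known as a product of stromal and endothelial cells. Cxcl12 (chromosome 6, 117168535 to 117181367) was at 28.6, 25.8, 26.9 and 27.5 CPM in the male WT libraries, 15.5, 15.5 and 15.8 in male KO, 13.5, 12.1, 14.4 and 14.2 in female WT and 21.9, 24.0, 17.5 and 16.97 in female KO. Male WT was the highest group and female WT the lowest, without overlap between KO and WT in either sex. It fell in male KO (log2 fold change -0.81 ± 0.089, edgeR adjusted p = 1.19e-07) and rose in female KO (0.56 ± 0.087, edgeR adjusted p = 9.83e-06), a difference of 1.36 ± 0.12, edgeR adjusted p = 8.99e-09. Female KO libraries 1 and 2 were above libraries 3 and 4. Endothelial markers had part of this order. The 10 genes summed to 109 to 122 CPM for male WT, 49.8 to 56.5 for male KO, 43.3 to 50.7 for female WT and 49.2 to 64.2 for female KO, with 9 of 10 lower in male KO and 4 higher in female KO. The fibroblast marker Pdgfra also fell in male KO and rose in female KO. It was at 7.92 CPM in male WT, 5.79 in male KO, 3.73 in female WT and 4.84 in female KO. Of 8 tested fibroblast markers 6 were lower in male KO, and 5 were lower and 2 higher in female KO. The part of these markers in the Cxcl12 result was not tested.

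Cxcl14 was the chemokine with the largest fall. It is made by resting epithelia. Its promoter (chr13:56296502-56296801, minus strand) is printed for contrast, since it held no match to the kappaB consensus and so has no capitals.
Cxcl14 promoter: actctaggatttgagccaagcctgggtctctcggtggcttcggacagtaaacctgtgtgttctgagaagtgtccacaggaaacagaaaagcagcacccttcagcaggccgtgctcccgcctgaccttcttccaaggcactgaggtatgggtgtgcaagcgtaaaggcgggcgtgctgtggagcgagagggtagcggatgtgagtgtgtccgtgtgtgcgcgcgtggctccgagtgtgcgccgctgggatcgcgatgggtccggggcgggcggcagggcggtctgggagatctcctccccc

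Cxcl14 (chromosome 13, 56288643 to 56296551) was at 8.77, 7.55, 7.91 and 9.08 CPM in the male WT libraries, 5.04, 4.42 and 4.63 in male KO, 12.7, 15.003, 13.4 and 13.6 in female WT and 4.85, 5.44, 4.48 and 3.42 in female KO. Female WT was highest, male WT next, and the KO groups of both sexes overlapped each other at the bottom. Its log2 fold change was -0.83 ± 0.12, edgeR adjusted p = 1.86e-06 in males and -1.60 ± 0.10, edgeR adjusted p = 1.11e-14 in females, 3.02-fold lower, with a difference between the sexes of -0.77 ± 0.16, edgeR adjusted p = 6.87e-04. Markers of the distal nephron and collecting duct had the same order, at 10.46 to 12.9 CPM for male WT, 6.71 to 8.51 for male KO, 18.6 to 20.5 for female WT and 4.14 to 7.57 for female KO in sum, with 1 of 6 tested lower in male KO and 4 of 6 in female KO, and their part was not tested. Cxcl5, another ligand of Cxcr2 (chromosome 5, 90759360 to 90761624), was rare at 0.874, 1.44, 1.49 and 0.641 CPM in the male WT libraries, 0.790, 0.832 and 1.43 in male KO, 1.52, 1.60, 1.27 and 1.19 in female WT and 0.970, 0.499, 0.878 and 0.945 in female KO. Its female groups did not overlap and its male groups did. It fell in female KO (log2 fold change -0.74 ± 0.27, edgeR adjusted p = 0.0287), a call lost without female WT library 1 or 2 or female KO library 2, and in males the value was -0.10 ± 0.29, edgeR adjusted p = 0.852.

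The other chemokines gave no call. Cx3cl1, or fractalkine, was at 31.6 ± 0.892 CPM in male WT with log2 fold changes of -0.055 ± 0.059 in males and 0.11 ± 0.057 in females. Ccl7 and Ccl28 stayed under 1 CPM as group means. Ccl5 had 0 to 16 counts per library and was not tested. Without a filter on low counts it was called higher in female KO (edgeR adjusted p = 7.95e-04), where it had 6 to 16 counts, against 0 to 4 in female WT.

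Of 11 tested interleukins and other cytokines, 4 were higher and 2 lower in male KO, beside 10.1% and 10.1% of all genes. In female KO 5 were higher and 2 lower, beside 20.7% and 18.6% of all genes, so the 2 lower were near the share of all genes. Csf2 and Il34 rose in both sexes and more in females. Csf2 encodes GM-CSF, a growth factor of granulocytes and macrophages (chromosome 11, 54247271 to 54249667), and was at 4.4997, 4.05, 2.75 and 3.79 CPM in the male WT libraries, 4.89, 5.25 and 4.95 in male KO, 2.94, 2.02, 2.44 and 3.17 in female WT and 6.51, 5.94, 6.33 and 6.08 in female KO. KO libraries were above WT libraries in both sexes, and female KO was the highest group. The log2 fold change was 1.21 ± 0.14, edgeR adjusted p = 7.49e-09 in females, 2.32-fold, and 0.41 ± 0.14, edgeR adjusted p = 0.0379 in males, and the difference was 0.80 ± 0.20, edgeR adjusted p = 0.00373. The male call was lost with DESeq2 and without any 1 of 5 of the 7 male libraries (all but male WT 1 and 2). Il34, a second ligand of the receptor Csf1r (chromosome 8, 110741829 to 110805924), was at 31.1, 24.9, 27.98 and 27.9 CPM in the male WT libraries, 32.1, 34.4 and 34.5 in male KO, 28.1, 28.8, 28.7 and 28.9 in female WT and 40.4, 43.4, 42.8 and 46.5 in female KO. Female KO stood above all other libraries, and male KO above male WT. Log2 fold changes were 0.25 ± 0.060, edgeR adjusted p = 0.00178 in males and 0.60 ± 0.054, edgeR adjusted p = 5.25e-11 in females, with a difference of 0.34 ± 0.081, edgeR adjusted p = 0.00226.

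Csf1, the first ligand of Csf1r, and Lif, a cytokine of the interleukin 6 family, were abundant and changed little in size. Csf1 was at 425 ± 12.9 CPM in male WT, 483 ± 13.4 in male KO, 400.0 ± 13.8 in female WT and 436 ± 7.64 in female KO, with log2 fold changes of 0.18 ± 0.030 in males and 0.12 ± 0.028 in females (edgeR adjusted p = 1.56e-05 and 5.11e-04). Lif was at 178 ± 7.30 CPM in male WT, 208 ± 4.17 in male KO, 181 ± 1.93 in female WT and 211 ± 6.199 in female KO, with 0.22 ± 0.032 and 0.23 ± 0.030 (edgeR adjusted p = 2.53e-06 and 1.36e-07). Neither gene's WT and KO libraries overlapped in either sex.

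Il11 fell in male KO alone. It is a cytokine of the interleukin 6 family that epithelial and stromal cells make under TGF beta (chromosome 7, 4772373 to 4782859), and was at 199, 207, 184 and 207 CPM in the male WT libraries, 113, 121 and 109 in male KO, 113, 115, 118 and 129.9 in female WT and 122, 119, 116 and 122 in female KO. The male WT libraries were all above the other 11, as they were for the summed endothelial and the summed podocyte markers, whose part was not tested. The pericyte marker Pdgfrb was also highest in male WT, at 99.3 CPM, with 63.0 in male KO, 62.6 in female WT and 66.0 in female KO. The summed smooth muscle and pericyte markers were not, at up to 3731 CPM in male WT and 4195 in female KO. Their part was not tested either. The log2 fold change of Il11 was -0.80 ± 0.046, edgeR adjusted p = 2.19e-12 in males and 0.0045 ± 0.044, edgeR adjusted p = 0.948 in females, and the difference between them 0.80 ± 0.063, edgeR adjusted p = 1.72e-09. Il6 itself, whose promoter holds a kappaB match (chr5:30012864-30013163, plus strand), fell in both sexes, and its promoter is shown for that reason.
Il6 promoter: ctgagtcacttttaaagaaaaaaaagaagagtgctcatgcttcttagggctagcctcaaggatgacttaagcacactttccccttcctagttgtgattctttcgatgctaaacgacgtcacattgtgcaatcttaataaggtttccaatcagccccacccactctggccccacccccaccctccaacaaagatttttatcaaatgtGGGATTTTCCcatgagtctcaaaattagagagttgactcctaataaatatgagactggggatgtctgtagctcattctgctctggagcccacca

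Il6 (chromosome 5, 30013114 to 30019981) was at 4.60, 3.55, 4.36 and 3.47 CPM in the male WT libraries, 2.47, 1.72 and 2.17 in male KO, 1.77, 2.34, 1.76 and 2.10 in female WT and 1.37, 1.15, 1.52 and 1.67 in female KO. KO was below WT in both sexes. Male WT was the highest group, again as for the endothelial and podocyte markers, whose part was not tested. Log2 fold changes were -0.93 ± 0.17, edgeR adjusted p = 6.76e-05 in males and -0.47 ± 0.19, edgeR adjusted p = 0.0460 in females. The female call was lost with DESeq2, with limma-voom, with no filter on low counts, and without any 1 of female WT libraries 2 and 4 and female KO libraries 1, 2 and 3.

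Interleukin 1 family genes other than Il1rn were low. Il1rn, the natural antagonist of interleukin 1, was at 13.0 ± 0.261 CPM in male WT, 13.5 ± 1.43 in male KO, 10.47 ± 1.01 in female WT and 12.6 ± 0.688 in female KO and rose in female KO (log2 fold change 0.27 ± 0.080, edgeR adjusted p = 0.00756), with 0.059 ± 0.082 in males. Il18 was at 1.55 ± 0.135 CPM in female WT and 1.05 ± 0.146 in female KO (-0.56 ± 0.21, edgeR adjusted p = 0.0334), a call lost with DESeq2, with no filter and without female WT library 1 or 3 or female KO library 2 or 4. Il33, Il15 and Tnf were not called in either sex, with male and female log2 fold changes of 0.44 ± 0.18 and -0.0087 ± 0.18 for the alarmin Il33, -0.0073 ± 0.21 and 0.27 ± 0.18 for Il15, and 0.29 ± 0.16 and 0.39 ± 0.17 for Tnf. Il1a had 0 to 9 and Il1b 1 to 12 counts per library and were not tested.

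**Figure D3:**
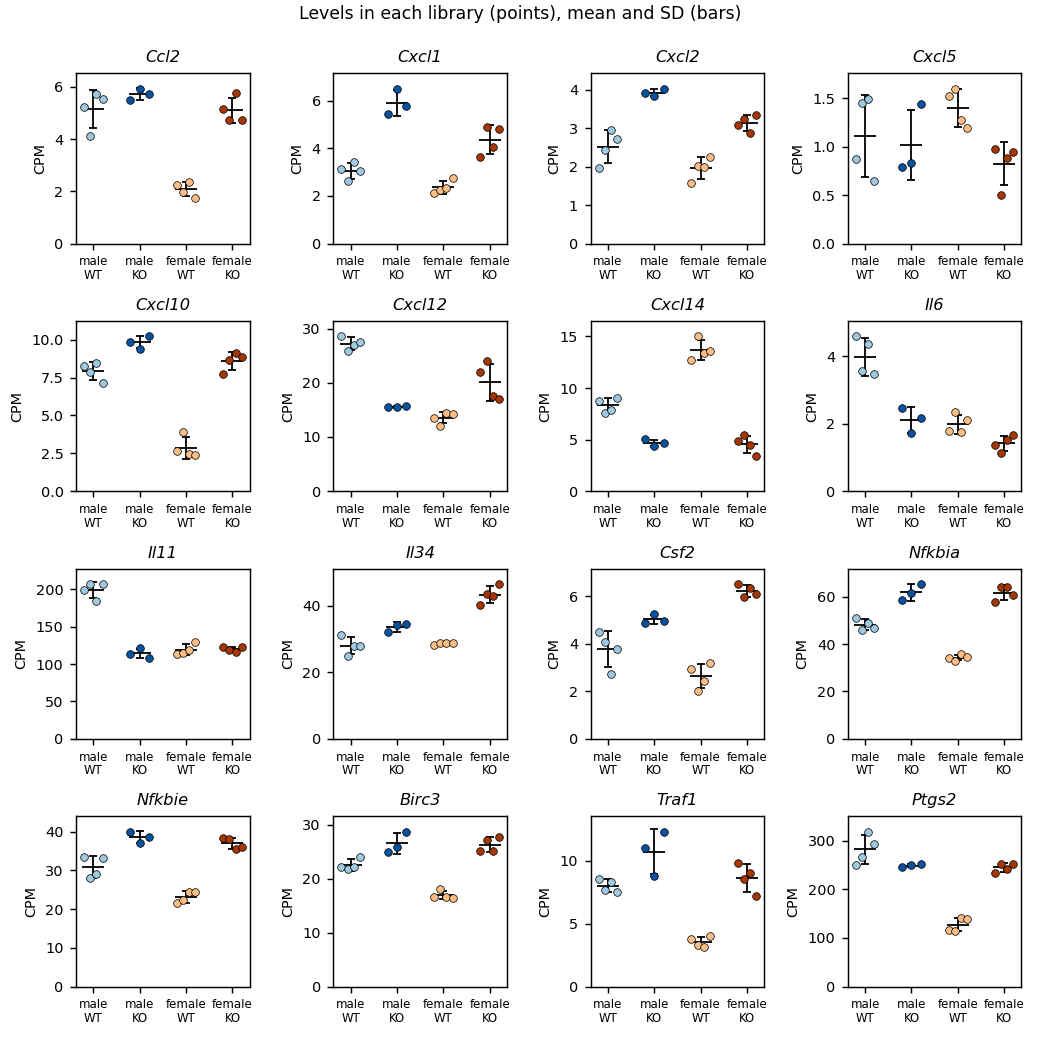
Level in each library (y axis, CPM, from 0) of the 16 genes with a called change of at least 1.5-fold, by group (x axis), with points for libraries and bars for the mean and SD. Female WT lies below the other groups for Ccl2, Cxcl10, Nfkbia, Nfkbie, Birc3, Traf1 and Ptgs2, and male WT above them for Il11 and Il6.

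All 5 NF-kB factor genes rose in female KO and 3 of 5 in male KO, beside 20.7% and 10.1% of all genes. Their median log2 fold change was 0.17 in males and 0.33 in females. Nfkb2, which encodes p100, the precursor of the p52 subunit of the alternative pathway, changed most. It was at 119 ± 5.01 CPM in male WT, 146 ± 4.11 in male KO, 96.5 ± 1.09 in female WT and 139 ± 2.81 in female KO, with log2 fold changes of 0.29 ± 0.034, edgeR adjusted p = 3.83e-08 in males and 0.53 ± 0.032, edgeR adjusted p = 3.48e-15 in females, and a difference of 0.23 ± 0.047, edgeR adjusted p = 3.76e-04. Relb, the partner of p52, was at 35.9 ± 1.51 CPM in male WT, 40.4 ± 0.673 in male KO, 29.9 ± 0.430 in female WT and 37.5 ± 1.13 in female KO, with 0.17 ± 0.047, edgeR adjusted p = 0.00860 in males and 0.33 ± 0.045, edgeR adjusted p = 3.77e-07 in females. The promoter of Nfkb2 at the first of its 3 listed start sites (chr19:46304487-46304786, plus strand) carried kappaB matches next to the start site and is shown with them in capitals.
Nfkb2 promoter: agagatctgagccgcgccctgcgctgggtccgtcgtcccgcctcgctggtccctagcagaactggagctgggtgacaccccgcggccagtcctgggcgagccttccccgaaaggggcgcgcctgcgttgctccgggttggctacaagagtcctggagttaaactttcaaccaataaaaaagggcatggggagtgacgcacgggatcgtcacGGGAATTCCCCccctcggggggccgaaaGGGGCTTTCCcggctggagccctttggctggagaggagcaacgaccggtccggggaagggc

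Subunits of the classical pathway had smaller values. Nfkb1, the precursor of p50, had log2 fold changes of 0.10 ± 0.034, edgeR adjusted p = 0.0401 in males and 0.11 ± 0.032, edgeR adjusted p = 0.00704 in females, and the male call was lost under 9 alternatives, 5 of them the removal of 1 library (male WT 2, 3 or 4, or male KO 1 or 3). The female call of Nfkb1 was lost with library size as the only scaling and without female WT library 4. Rela was at 134 ± 5.37 CPM in male WT, 142 ± 1.90 in male KO, 126 ± 1.44 in female WT and 139 ± 5.37 in female KO and rose in female KO (0.14 ± 0.032, edgeR adjusted p = 9.01e-04), with 0.085 ± 0.035, edgeR adjusted p = 0.0787 in males. Rel, the low-level subunit best known from lymphocytes, had 0.36 ± 0.14, edgeR adjusted p = 0.0404 in females, a call lost under 6 alternatives, 4 of them the removal of 1 library (female WT 2, 3 or 4, or female KO 4), and 0.19 ± 0.14, edgeR adjusted p = 0.381 in males.

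All 4 listed inhibitor genes of NF-kB rose in female KO, and Nfkbia and Nfkbie also in male KO, beside 20.7% and 10.1% of all genes. Their median log2 fold change was 0.21 in males and 0.48 in females. Nfkbia encodes the classical inhibitor and is itself an NF-kB target. Its promoter (chr12:55492598-55492897, minus strand) is shown for the kappaB match just before the start site, in capitals.
Nfkbia promoter: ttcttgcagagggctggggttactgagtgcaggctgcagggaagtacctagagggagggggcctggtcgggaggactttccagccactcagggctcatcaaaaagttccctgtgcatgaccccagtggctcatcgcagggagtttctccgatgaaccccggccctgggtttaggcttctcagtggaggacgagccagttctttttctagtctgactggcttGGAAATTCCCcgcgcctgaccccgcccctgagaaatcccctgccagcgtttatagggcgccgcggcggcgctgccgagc

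Nfkbia (chromosome 12, 55489410 to 55492647) was at 51.1, 46.1, 48.8 and 46.8 CPM in the male WT libraries, 58.5, 61.5 and 65.3 in male KO, 34.1, 32.8, 35.7 and 34.6 in female WT and 57.6, 64.1, 64.2 and 60.7 in female KO. Female WT lay below all other libraries, male WT came next, and the KO groups of both sexes overlapped. The log2 fold change was 0.35 ± 0.048, edgeR adjusted p = 7.17e-07 in males and 0.85 ± 0.046, edgeR adjusted p = 2.29e-16 in females, 1.80-fold, with a difference of 0.49 ± 0.067, edgeR adjusted p = 1.14e-06. Nfkbie, the inhibitor epsilon (chromosome 17, 45555703 to 45563169), was at 33.3, 27.9, 29.0 and 33.3 CPM in the male WT libraries, 40.01, 37.0 and 38.7 in male KO, 21.6, 22.2, 24.5 and 24.3 in female WT and 38.2, 38.1, 35.5 and 36.1 in female KO. It had the same order of groups, with log2 fold changes of 0.32 ± 0.059, edgeR adjusted p = 1.30e-04 and 0.67 ± 0.058, edgeR adjusted p = 1.82e-11 and a difference of 0.35 ± 0.083, edgeR adjusted p = 0.00219.

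Nfkbib, the inhibitor beta, was at 30.3 ± 1.05 CPM in male WT, 32.8 ± 0.745 in male KO, 27.9 ± 0.675 in female WT and 33.6 ± 1.27 in female KO, with 0.27 ± 0.047, edgeR adjusted p = 2.07e-05 in females and 0.11 ± 0.050, edgeR adjusted p = 0.114 in males. Tnfaip3 encodes A20, a ubiquitin-editing enzyme that shuts off signalling upstream of the inhibitors. It was at 102 ± 5.67 CPM in male WT, 109 ± 0.542 in male KO, 95.7 ± 2.05 in female WT and 117 ± 4.63 in female KO, with 0.29 ± 0.036, edgeR adjusted p = 3.30e-08 in females and 0.086 ± 0.038, edgeR adjusted p = 0.113 in males, a difference of 0.21 ± 0.052, edgeR adjusted p = 0.00490.

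Of 4 inducible signalling genes, 2 rose in male KO and 3 in female KO, beside 10.1% and 20.7% of all genes. Traf1, an adaptor of the tumour necrosis factor receptors that is itself an NF-kB target (chromosome 2, 34941750 to 34961772), was at 8.55, 7.66, 8.32 and 7.53 CPM in the male WT libraries, 11.01, 8.79 and 12.3 in male KO, 3.75, 3.30, 3.13 and 4.05 in female WT and 9.82, 8.54, 9.01 and 7.16 in female KO. Female WT was below every other library, and male WT below male KO. The log2 fold change was 1.26 ± 0.12, edgeR adjusted p = 2.03e-10 in females, 2.40-fold, 0.41 ± 0.11, edgeR adjusted p = 0.00497 in males, and 0.85 ± 0.16, edgeR adjusted p = 2.30e-04 for the difference. Birc3, which encodes the ubiquitin ligase cIAP2 (chromosome 9, 7848699 to 7873186), was at 22.1, 21.9, 22.1 and 24.1 CPM in the male WT libraries, 25.0, 25.9 and 28.7 in male KO, 16.6, 18.04, 16.7 and 16.4 in female WT and 25.1, 27.3, 25.1 and 27.7 in female KO. It had the same order of WT groups below KO groups, with 0.24 ± 0.062, edgeR adjusted p = 0.00416 in males, 0.64 ± 0.060, edgeR adjusted p = 1.16e-10 in females and 0.40 ± 0.086, edgeR adjusted p = 8.92e-04 for the difference. The male calls of both genes were lost without male KO library 3.

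Tnfaip2, a gene induced by tumour necrosis factor, was at 148 ± 5.10 CPM in male WT, 147 ± 1.997 in male KO, 132 ± 3.69 in female WT and 145 ± 3.16 in female KO and rose slightly in females (0.13 ± 0.031, edgeR adjusted p = 6.36e-04), with -0.0030 ± 0.033, edgeR adjusted p = 0.965 in males. Ripk2, the kinase of the NOD receptors, was not called in either sex (-0.17 ± 0.085 in males and 0.18 ± 0.082 in females). The sex differences of Tnfaip2 (0.14 ± 0.045, edgeR adjusted p = 0.0326) and Ripk2 (0.35 ± 0.12, edgeR adjusted p = 0.0358) were lost under 11 and 10 alternatives, library size as the only scaling among them. For both genes these included leaving out male WT 2 or 4, male KO 1 or 3, female WT 3 or 4, or female KO 1 or 2, and for Ripk2 also male WT 1.

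The Toll-like receptor genes and Myd88 gave no call in male KO, with log2 fold changes of 0.090 ± 0.077 for Tlr2, -0.013 ± 0.051 for Tlr3, -0.081 ± 0.10 for Tlr4 and 0.10 ± 0.084 for Myd88 (edgeR adjusted p = 0.468, 0.895, 0.651 and 0.478). In female KO, where 39.3% of all genes were called, the 3 of these genes that were called did not move together. Tlr2, the receptor of bacterial lipoproteins, rose (14.9 ± 1.22 CPM in male WT, 15.8 ± 0.705 in male KO, 11.7 ± 0.822 in female WT and 16.5 ± 0.934 in female KO, log2 fold change 0.49 ± 0.074, edgeR adjusted p = 1.61e-06), as did Myd88, the adaptor that Tlr2 and Tlr4 use (0.27 ± 0.078, edgeR adjusted p = 0.00620). Tlr3, the receptor of double-stranded RNA, fell (44.6 ± 1.92 CPM in male WT, 44.2 ± 1.40 in male KO, 58.7 ± 1.02 in female WT and 43.6 ± 3.46 in female KO, -0.43 ± 0.046, edgeR adjusted p = 2.43e-09). For Tlr3 the female WT libraries, at 60.1, 57.7, 58.5 and 58.5 CPM, were above all others. The sexes differed for Tlr2 (0.40 ± 0.11, edgeR adjusted p = 0.00697) and Tlr3 (-0.41 ± 0.068, edgeR adjusted p = 2.82e-05). Tlr4, the receptor of lipopolysaccharide, had -0.10 ± 0.093 in females.

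Effector genes split. Ptgs2 encodes the inducible cyclooxygenase COX-2, which starts prostaglandin synthesis (chromosome 1, 150100031 to 150108227), and was at 250.04, 267, 319 and 294 CPM in the male WT libraries, 245, 249.9 and 252 in male KO, 117, 114, 140.4 and 139 in female WT and 234, 253, 243 and 253 in female KO. Every female WT library was below every other library, and the male groups overlapped. It rose 1.92-fold in female KO (log2 fold change 0.94 ± 0.084, edgeR adjusted p = 1.89e-06), was not called in male KO (-0.18 ± 0.087, edgeR adjusted p = 0.181), and differed between the sexes by 1.12 ± 0.12, edgeR adjusted p = 3.87e-05. C3, the central complement protein, fell in both sexes by like amounts. It was at 52.9 ± 5.89 CPM in male WT, 36.8 ± 2.46 in male KO, 49.1 ± 4.996 in female WT and 35.8 ± 1.17 in female KO, with -0.52 ± 0.083, edgeR adjusted p = 1.72e-04 in males and -0.45 ± 0.077, edgeR adjusted p = 1.46e-04 in females. The difference of these effects was 0.066 ± 0.11, edgeR adjusted p = 0.771. Nos2, the inducible nitric oxide synthase, had 3 to 6 counts in each male WT library and 0 in all male KO libraries, which allows up to 3 counts in each, so no fold is given. It was called lower in male KO with no filter on low counts (edgeR adjusted p = 0.00814). The acute phase gene Saa3 had 0 to 4 counts per library and was not tested.

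Across roles, the tests of the difference between the sexes called 18 members, beside 15.6% of all genes. The KO effect was more positive in females for 16 and more negative for 2, beside 9.76% and 5.89% of all genes. Female WT had the lowest group mean for 29 of the 42 tested members, against 33.1% of all tested genes. For 14 members every female WT library lay below every other library, against 8.96% of all genes. These were Ccl2, Cxcl10, Cxcl12, Il1rn, Nfkb2, Relb, Nfkbia, Nfkbib, Nfkbie, Traf1, Birc3, Tnfaip2, Tlr2 and Ptgs2. These counts were chosen after the values were seen, and describe levels with no test. Male KO had the highest group mean for 19 of the 42, against 25.3% of all tested genes.

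**Figure D4:**
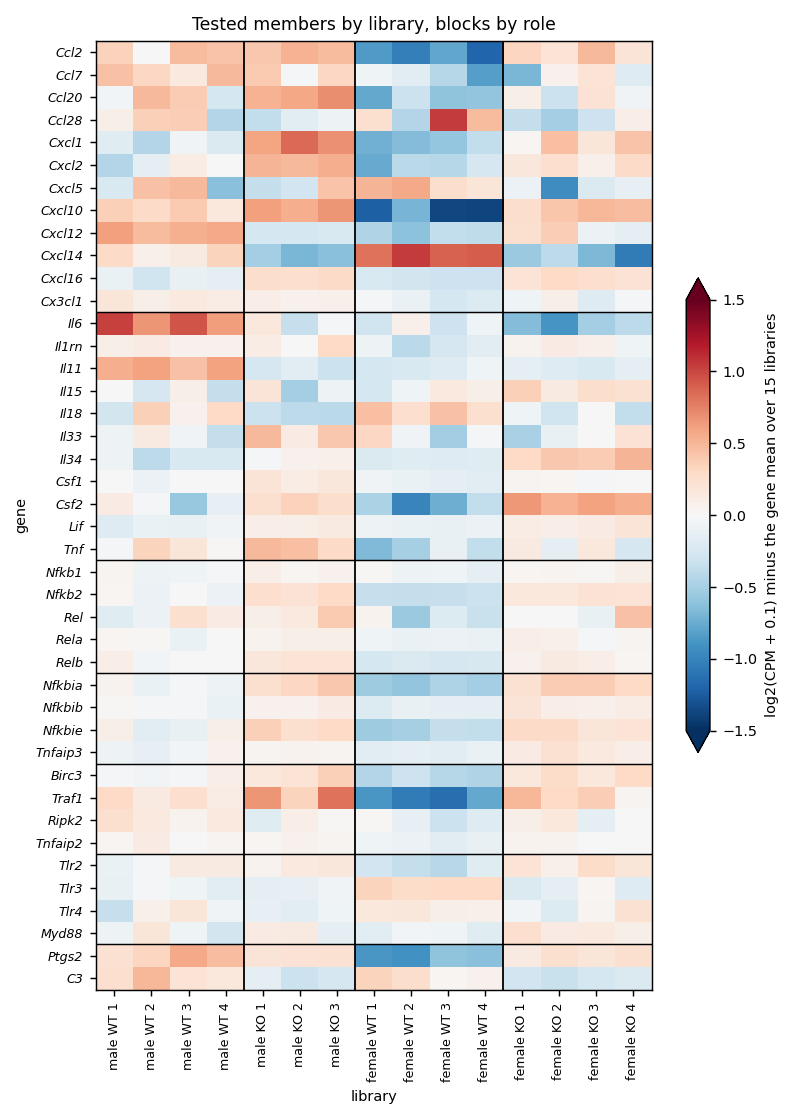
Tested genes (rows, in blocks by role) in each of the 15 libraries (columns), coloured by log2(CPM + 0.1) minus the gene's mean over the libraries, where red is above and blue below that mean. The female WT block is blue for Ccl2, Cxcl10, Csf2, Nfkbia, Traf1 and Ptgs2 and red for Cxcl14 and Tlr3, and the male WT block is red for Il6, Il11 and Cxcl12.

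Promoter sequence was searched for the kappaB consensus on both strands. Promoters were listed for 36 of the 48 members, and 13 of these (36.1%) had a match in at least 1 window of 300 bases, against 5.14% of the 27025 genes listed. Counted by promoter, 34.9% of 43 and 4.51% of 32851 held a match. Many of these genes were listed here because they are NF-kB targets, so the share describes the list. Of the 12 listed members higher in male KO 8 had a match, as had 1 of 5 lower and 4 of 15 not called. In female cells it was 11 of 22 higher, 2 of 5 lower and 0 of 5 not called. Il6 and Tlr3 held a match and fell, while Traf1 and Ptgs2 held none in these windows and rose in female KO. Adjacent matches that overlap, as in Cxcl1 and Cxcl2, appear as 1 run of capitals.

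Other genes of the pathway were taken from lists by role, and each rise or fall named here had an edgeR adjusted p below 0.05. Of 31 cytokine and chemokine receptor genes 25 were tested. In male KO 5 of them were higher and 7 lower, beside 10.1% and 10.1% of all genes. In female KO 10 were higher and 3 lower, beside 20.7% and 18.6% of all genes. Cx3cr1, the fractalkine receptor of macrophages, rose in both sexes (1.38 ± 0.43 in males and 2.07 ± 0.35 in females), from 0.276 ± 0.142 and 0.306 ± 0.146 CPM in WT. Il18r1, a chain of the interleukin 18 receptor, rose from 57.9 ± 3.31 to 77.8 ± 3.08 CPM in males (log2 fold change 0.43 ± 0.047) and from 56.6 ± 1.71 to 87.5 ± 5.48 CPM in females (0.63 ± 0.044). Cxcr4 (-1.43 ± 0.25) and Ackr3 (-0.65 ± 0.16), both receptors of Cxcl12, fell in male KO, and were not called in female KO (-0.54 ± 0.28, edgeR adjusted p = 0.126 and -0.26 ± 0.17, edgeR adjusted p = 0.223). Cxcr6, the receptor of Cxcl16, fell in male (-0.83 ± 0.19) and female KO (-0.54 ± 0.15). Csf2rb, the shared beta chain of the GM-CSF receptor, rose in female KO by 1.16 ± 0.17 on the log2 scale, with 0.41 ± 0.23, edgeR adjusted p = 0.223 in males. Osmr, which binds oncostatin M, fell in male (-0.40 ± 0.050) and female KO (-0.27 ± 0.048).

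Of 34 tested IKK kinases, adaptors and ubiquitin enzymes, male KO had 5 higher and 1 lower, a share near the 20.2% of all genes called. Female KO had 5 higher and 2 lower, where 39.3% of all genes were called, and the median log2 fold changes of the list were 0.022 in males and 0.020 in females. The adaptor Traf5 rose in female KO (0.71 ± 0.089), with -0.094 ± 0.10, edgeR adjusted p = 0.553 in males. Tnip1, a partner of A20, rose in female (0.38 ± 0.037) and male KO (0.14 ± 0.039). Nfkbiz, an inducible nuclear member of the inhibitor family, fell in male (-0.17 ± 0.042) and female KO (-0.39 ± 0.039).

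Other NF-kB target genes moved in both directions. Of 24 tested, 8 were higher and 2 lower in male KO, beside 10.1% and 10.1% of all genes. In female KO 9 were higher and 3 lower, beside 20.7% and 18.6% of all genes. The leukocyte adhesion molecule Vcam1 was at 20.3 ± 1.63 CPM in male WT, 39.0 ± 2.23 in male KO, 9.73 ± 0.912 in female WT and 41.0 ± 1.33 in female KO. Its log2 fold changes were 0.93 ± 0.062 in males and 2.07 ± 0.065 in females, and those of Icam1, another adhesion molecule of leukocytes, 0.73 ± 0.061 and 1.097 ± 0.061. Csf3, or G-CSF, rose from 10.01 ± 0.949 to 14.8 ± 0.516 CPM in males (0.58 ± 0.10) and from 7.30 ± 0.786 to 15.5 ± 2.34 CPM in females (1.08 ± 0.10). The gelatinase Mmp9 was at 87.2 ± 5.64 CPM in male WT and 95.9 ± 4.31 in male KO (0.13 ± 0.052, edgeR adjusted p = 0.0738), and rose in females from 31.2 ± 1.25 to 104 ± 7.70 CPM (1.73 ± 0.054). Tnfsf15, a ligand of the tumour necrosis factor family known from endothelium, fell in male KO from 36.4 ± 3.12 to 15.2 ± 0.868 CPM, and was not called in females (-0.074 ± 0.073, edgeR adjusted p = 0.449). The protease gene Plau rose in males from 1738 ± 37.3 to 1869 ± 38.4 CPM (0.11 ± 0.027) and fell in females from 1736 ± 2.12 to 1534 ± 57.2 CPM (-0.18 ± 0.025).

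The other marker lists gave these values, and their part in the results was not tested. In bulk RNA, fewer cells of a type and less RNA per cell cannot be told apart. Over all genes 10.1% were called higher and 10.1% lower in male KO, and 20.7% and 18.6% in female KO. These shares stand beside the counts of all marker lists, those given earlier included. The 10 fibroblast genes summed to 3429 to 3666 CPM for male WT, 1789.5 to 1978 for male KO, 3567 to 3843 for female WT and 2549 to 2778 for female KO, with 6 of 8 tested lower in male KO, and 5 lower and 2 higher in female KO. Among smooth muscle and pericyte genes 8 of 9 were lower in male KO, and 4 were lower and 2 higher in female KO, with sums of 3389.6 to 3731 CPM for male WT, 2832 to 2911 for male KO, 3690.4 to 3737 for female WT and 3631 to 4195 for female KO. Neither sum was lowest in female WT, but Col1a1 and Col1a2, and Acta2 and Tagln, make up most of these sums. Single genes differed in order, with Pdgfra lowest in female WT (3.73 CPM) and Postn highest there (41.2 CPM). Podocyte genes, lowest in the female groups, summed to 472 to 498 CPM for male WT, 400.1 to 438 for male KO, 305 to 320.1 for female WT and 317 to 358 for female KO, with 2 of 7 lower in male KO, and 3 higher and 1 lower in female KO. Proximal tubule genes summed to 239 to 254 CPM for male WT, 239 to 254 for male KO, 274 to 294 for female WT and 241 to 259.7 for female KO, with 2 higher and 2 lower of 10 in male KO, and 1 higher and 3 lower in female KO. Immediate early genes, which respond to handling, summed to 1296 to 1365 CPM for male WT, 1279 to 1403 for male KO, 1291 to 1332 for female WT and 1323 to 1493 for female KO, with 5 of 14 higher and 2 lower in male KO and 9 higher and 1 lower in female KO.

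**Figure D5:**
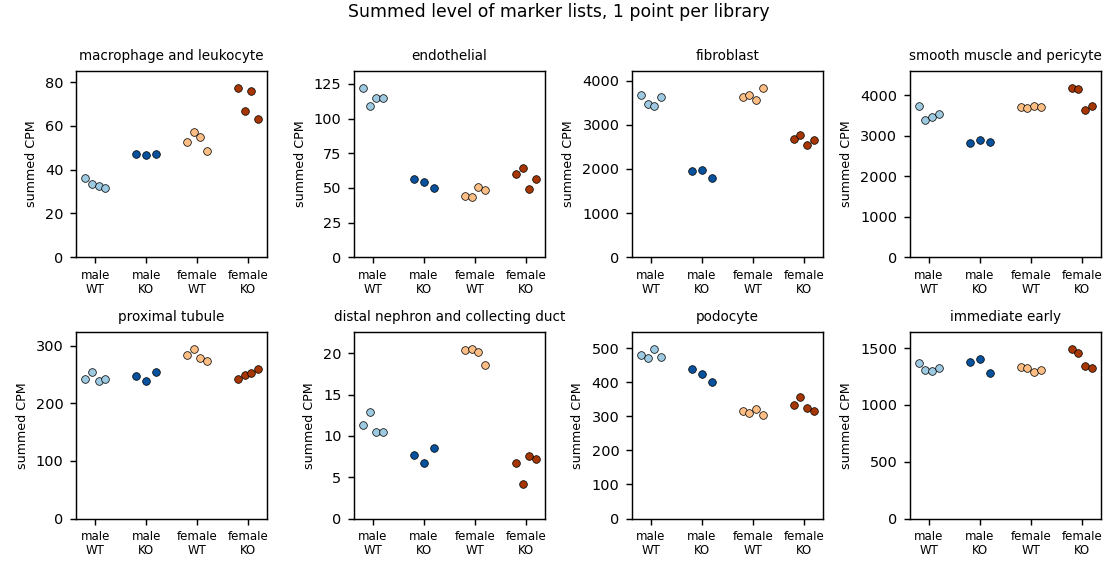
Summed level (y axis, CPM, from 0) of 8 marker lists in each library, by group (x axis). Endothelial genes are highest in male WT, at 109 to 122 CPM, and macrophage and leukocyte genes are highest in female KO, at 63.2 to 77.5 CPM.

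Since each group was 1 pool, the KO effect was also tested on counts summed per pool, with sex as a term and 1 residual degree of freedom. That 1 degree of freedom is the difference between the female and male KO effects. A sex difference, as called for Cxcl12, hence counts as error, and no spread between replicate pools of a group is measured. No member was called (edgeR adjusted p of 0.137 or more), and 0.00719% of all genes were. At an unadjusted p below 0.05, 16 members were higher and 4 lower of 42, beside 17.7% of all genes. The largest effects over the pools were those of Cxcl14 (-1.23 ± 0.21), Cxcl10 (0.92 ± 0.34) and Cxcl1 (0.90 ± 0.14). With library size as the only scaling, Cxcl16, Nfkb2 and Cxcl1 were called higher and C3 lower (edgeR adjusted p = 0.0176 for Cxcl16 and C3, 0.0369 for Nfkb2 and 0.0384 for Cxcl1).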

How the data were processed

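RNA of 15 libraries was sequenced with a strand-specific mRNA kit, per the labels' protocols. The deposited tables hold whole-number counts per gene symbol and CPM values, both made by the authors. The submitters' processing notes list STAR 2.6.1 and featureCounts with the mm10 build, and edgeR 3.26.8 with limma 3.40.6. Annotation and strand setting are not given in the sources used here. Deposited CPM values equal each count over its library total to within 1e-06 and served only for this check. The Diet1 transcript is not reported here.

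The counts were modelled with edgeR 4.0.16 under R 4.3.3. Genes passing filterByExpr (minimum count 10, total 15; 13912 of 24421) were scaled by TMM, and 1 robust quasi-likelihood model held a mean for each group. It gave the KO effect for males and females and their difference. Calls needed an adjusted p (Benjamini-Hochberg, all genes tested) below 0.05. Standard errors are the estimate over the square root of F. Counts summed per pool were fitted beside it. The script was tested on simulated data.

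A member was given by library when called with at least 1.5-fold and a group mean of at least 1 CPM. From each other list up to 3 called genes per direction and comparison were eligible. The members and lists were chosen with earlier results of these data known. No library was a copy of another: counts within groups differed by 1.53 to 8.26 times sampling noise (chi-square per degree of freedom). Male WT library 1 was at 4.14, 8.26 and 4.96 against male WT libraries 2, 3 and 4, whose own pairs were at 2.08 to 2.83. Female KO library 1 was at 4.53 and 5.13 against libraries 3 and 4, which were 1.81 from each other. Alternatives used limma 3.58.1, DESeq2 1.42.0, other scalings and filters, a replicate block, and each library left out. Positions and exon lengths are from GENCODE M21 (GRCm38), promoters from RefSeq (GRCm38.p6).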

Additional observations from a re-analysis of the deposited data

Results flagged for a closer look

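The KO effect differed between the sexes (edgeR's quasi-likelihood test of the difference, adjusted p below 0.05) for 18 members. With 1 pool a group, such a difference cannot be told apart from a deviation of a single pool. The difference, female minus male on the log2 scale, was largest for Cxcl12 at 1.36, the only one of the 18 called in opposite directions, followed by Cxcl10 at 1.30, Ccl2 at 1.17 and Ptgs2 at 1.12. It was 0.85 for Traf1, 0.80 for Csf2 and 0.80 for Il11, where the male effect was a fall. Among inhibitors and factors it was 0.49 for Nfkbia, 0.35 for Nfkbie, 0.21 for Tnfaip3 and 0.23 for Nfkb2. Further values were 0.40 for Birc3, 0.40 for Tlr2, 0.35 for Ripk2, 0.34 for Il34 and 0.14 for Tnfaip2. It was negative for Cxcl14 at -0.77 and Tlr3 at -0.41.

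A single library stood far from the other 3 of its group in 4 of 126 group tests, where chance gives about 1 in 20. These were Csf1 in male WT library 2 (405.7 CPM, the nearest at 428.5), Nfkb2 in female WT library 4 (98.09, the nearest at 96.05), Birc3 in male WT library 4 (24.08, the nearest at 22.11) and Birc3 in female WT library 2 (18.04, the nearest at 16.65).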

How the results depend on the processing

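No call of a member reversed under another scaling, filter, tool or subset of libraries. Calls were lost in 27 of 501 checks of a called member under an alternative in male cells, 25 of 787 in female cells and 21 of 414 for the difference between the sexes. With each library left out in turn, members higher in male KO ranged from 10 to 16, the 10 being without male KO library 3, and members lower in female KO from 3 to 6, the 3 being without female KO library 2. A filter of 5 CPM left 3 lower in female KO, since fewer low genes were tested. With library size as the only scaling, 1272 genes had a lower effect in females, against 819 with TMM. The pool test then called 133 genes higher and 135 lower in KO, among them 3 members higher and 1 lower. With DESeq2 size factors it called 0 genes lower, against 1 with TMM, and the causes were not tested. Over all genes, library size alone moved the median female log2 fold change by -0.038. The count of 14 members with every female WT library lowest was 12 with library size alone and 13 with upper quartile scaling.

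With the replicate number as a block (replicate block), members were 16 higher and 5 lower in male KO, 27 and 6 in female KO, and 16 and 2 for the difference, as without it. Same-numbered libraries deviated together by r of -0.028 to 0.072, so no common deviation was seen. Counting noise can hide a small one, so these values cannot exclude a shared step of handling. Depth limits Ccl5, Il1a, Il1b, Nos2 and Saa3, all under 20 counts a library.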
